A study of Sus scrofa with 6 samples.

Results

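The 6 troponin genes of skeletal muscle fibres were examined in 2 muscles of the pig, the longissimus thoracis (LT) and the semitendinosus (ST). They form 3 pairs, each with a gene of slow fibres and a gene of fast fibres: TNNC1 and TNNC2 for troponin C, TNNI1 and TNNI2 for troponin I, and TNNT1 and TNNT3 for troponin T. They were taken by their symbols, which are joined to Ensembl gene IDs, and are 6 of 25973 protein-coding genes in the data. Their 29 transcripts, of 72511 in all, were summed per gene. The unit was FPKM, fragments per kilobase of transcript per 1000000 mapped fragments, which allows levels of genes of different length to be compared.

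The samples came from 3 Min pigs, a Chinese indigenous breed, at 210 days of age. The genotype was labelled WT and no treatment was given. LT and ST were sampled from the same pigs. The labels do not say that the replicate number is the pig. It was read so because same-numbered libraries deviated together, and every value given per pig rests on this reading. The study asked how RNA differs between these muscles, which differ in meat quality. Whole muscle was sequenced, so that more fibres of a type and more RNA per fibre cannot be told apart.

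Troponin sits on the thin filament of the sarcomere and makes contraction depend on calcium. Troponin C binds calcium, troponin I holds back the interaction of actin and myosin until calcium arrives, and troponin T ties the complex to tropomyosin. Slow and fast fibres use different genes for each subunit, and the slow troponin C gene TNNC1 also serves the heart. The troponin T genes are known for extensive alternative splicing.

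The depth of a library, estimated from the smallest steps in the FPKM values, was 38400000 to 51900000 fragments. The study reports a higher average number of clean read pairs for both muscles. By this estimate, each troponin gene rested on 11511 to 599616 fragments in a library, so counting error was small beside the spread between pigs. ST replicate 2 stood apart from the other ST libraries. Its nearest library over 19672 genes was LT replicate 2 of the same pig, at a root mean square difference of 0.736 on the log2 scale, against 0.793 and 0.826 to the other ST libraries. ST replicates 1 and 3 were 0.635 apart. The files do not tell whether its sampling site or its label differs from those of the other ST libraries. Results are therefore given with and without this library, and the meaning of the difference between both is limited by this. Of 8 listed markers of skeletal muscle fibres, 4 were found. They were high in all libraries but not even, with sums of 23630 to 28846 FPKM in LT and 10595 to 19608 FPKM in ST. MYLPF, the largest of them in LT, had a mean of 20655 FPKM in LT and 6624 FPKM in ST. ACTA1, the skeletal actin, overlapped, between 1768 and 3025 FPKM. Other features differed between the muscles as well. The 3 endothelial markers found, of 4 listed, summed to 36.6 to 57.4 FPKM in LT and 98.6 to 137 FPKM in ST. The mitochondrial share of all FPKM was 5.36% to 8.16% in LT and 12.1% to 15.4% in ST. Both were also high in ST replicate 2. PECAM1 and CDH5 of the endothelial markers were called higher in ST in limma, against 0.412% of all genes, though not with quantile normalization. KDR, the other endothelial marker found, overlapped, at 7.99 FPKM in ST replicate 2 and 9.14 FPKM in LT replicate 1. The 3 smooth muscle markers summed to 88.7 to 110.2 FPKM in LT and to 120.4 to 159.8 FPKM in ST, and the 3 leukocyte markers to 4.14 to 4.59 and to 5.12 to 6.998 FPKM. None of these smooth muscle and leukocyte markers was called in limma with all 6 libraries, and TAGLN and CD68 among them overlapped. The part of these cell types and of mitochondrial RNA in the differences below was not tested. The summed markers of adipocytes (5 genes), fibroblasts (5), erythrocytes (2) and Schwann cells (2) overlapped between the muscles.

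TNNC1, the slow calcium sensor (ENSSSCG00000011441, chromosome 13, 34591210 to 34594339, minus strand, Sus scrofa 11.1), was listed at 2993, 1868 and 2314 FPKM in LT replicates 1, 2 and 3. In ST replicates 1, 2 and 3 it was at 14922, 2463 and 12953 FPKM. ST replicates 1 and 3 lay far above every LT library, while ST replicate 2 lay within the LT range. Within the pigs, ST was 4.99, 1.32 and 5.60 times LT. The mean was 2391 ± 567 FPKM in LT and 10113 ± 6697 FPKM in ST (SD, n = 3 each). TNNC2, the fast calcium sensor (ENSSSCG00000007424, chromosome 17, 48024685 to 48028638, minus strand), went the other way. It was at 9073, 9187 and 6549 FPKM in LT and at 1585, 6139 and 383 FPKM in ST. All 3 ST libraries were below all LT libraries, ST replicate 2 only narrowly.

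TNNI1, the slow inhibitory subunit (ENSSSCG00000024061, chromosome 10, 23788279 to 23804083, minus strand), was at 587, 368 and 383 FPKM in LT and at 2325, 387 and 2494 FPKM in ST. ST replicate 2 again fell among the LT libraries. The pig of replicate 2 had almost the same level in both muscles, at a ratio of 1.05, against 3.96 and 6.51 in the other pigs. TNNI2, the fast inhibitory subunit (ENSSSCG00000033260, chromosome 2, 1251527 to 1253893, plus strand), varied least of the 6 troponin genes in LT, at 8020.4, 8404 and 7527 FPKM. In ST it was at 1464, 6024 and 458 FPKM. No ST library reached the lowest LT library. The LT level was 5.48, 1.40 and 16.4 times the ST level in the 3 pigs.

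TNNT1, the slow tropomyosin-binding subunit (ENSSSCG00000025353, chromosome 6, 59347582 to 59365589, minus strand), was at 348, 207 and 246 FPKM in LT and at 1746, 382 and 2079 FPKM in ST. It was the single slow gene for which all 3 ST libraries lay above all LT libraries, with ST replicate 2 just past LT replicate 1. TNNT3, its fast partner (ENSSSCG00000031903, chromosome 2, 989931 to 1317600, plus strand), was at 8127, 7992 and 5185 FPKM in LT. It was at 1046, 4518 and 161 FPKM in ST. LT was 7.77, 1.77 and 32.2 times ST in the 3 pigs. This was the widest gap of the 6 genes in the pigs of replicates 1 and 3. In the pig of replicate 2, TNNT1 had a wider gap, with ST at 1.84 times LT. In LT, the slow genes ranked TNNC1, TNNI1 and TNNT1 from high to low in each library, while the 3 fast genes of a library lay within 1.45 times of each other.

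**Figure D1:**
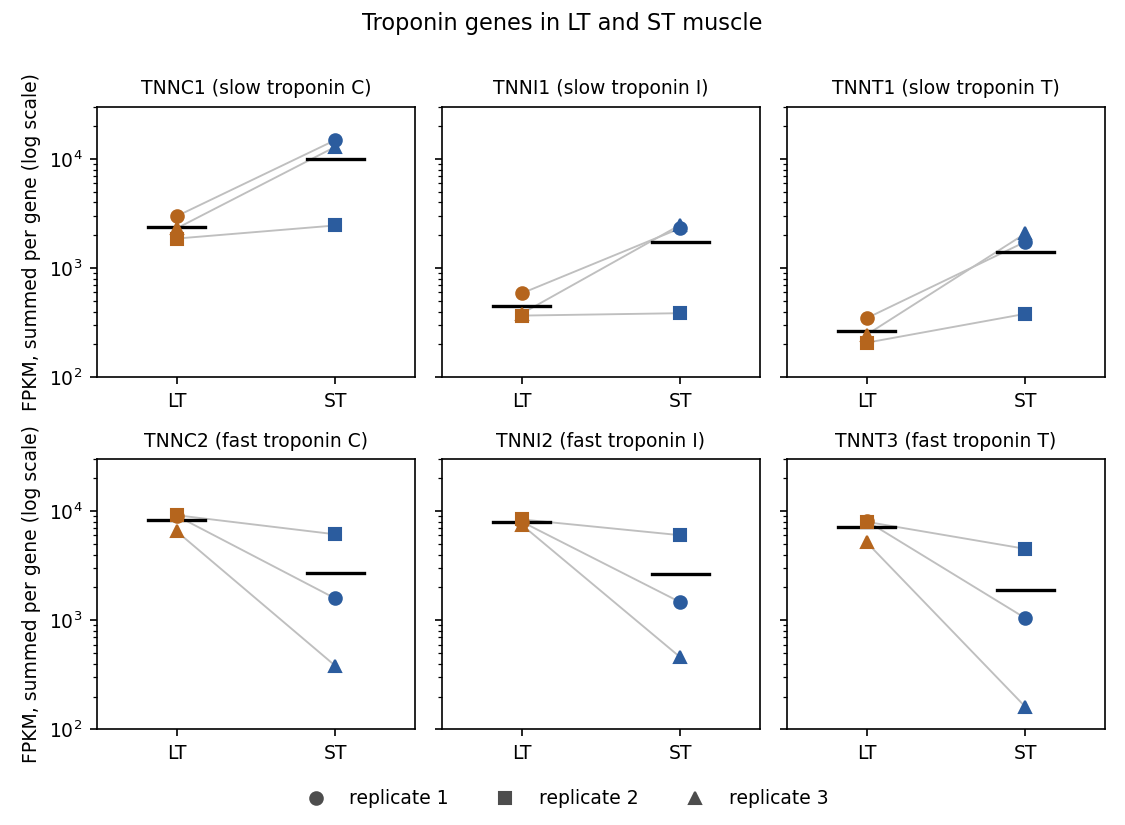
FPKM of each troponin gene (log scale) in the LT and ST libraries, with the slow genes above and the fast genes below. Points are libraries, lines join the 2 muscles of a pig and black bars are means. The fast genes were lower in all 3 ST libraries, and ST replicate 2 (square) was the ST library nearest to LT for each gene.

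In all, 4 of the 6 genes did not overlap between the muscles, 3 lower and 1 higher in ST, where 8.08% of all genes were lower and 16.6% higher without overlap. In limma on log2(FPKM + 0.1), with all 6 libraries, the log2 fold change of ST against LT was positive for the slow genes and negative for the fast genes. It was 1.73 ± 0.69 for TNNC1, 1.59 ± 0.68 for TNNI1 and 2.10 ± 0.61 for TNNT1 (± SE). It was -2.40 ± 0.88 for TNNC2, -2.32 ± 0.82 for TNNI2 and -2.93 ± 1.04 for TNNT3. None passed an adjusted p of 0.05, at a background of 0.574% of genes called, and the adjusted p in limma ranged from 0.128 for TNNT1 to 0.259 for TNNI1. All 6 had an unadjusted p under 0.05, as did 18.8% of all genes tested. In size, each change lay between the 97.66th and the 99.74th percentile of all genes.

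The call turned on ST replicate 2, the ST library nearest to LT for each of the 6 genes. Leaving it out therefore had to widen each change, and the adjusted p without it are no separate support. Without it, all 6 genes passed in limma, the 3 slow genes higher and the 3 fast genes lower in ST, with 3.31% of genes called higher and 1.77% lower. TNNT1 then rose by 2.87 ± 0.27 on the log2 scale (adjusted p = 0.00357 in limma), TNNI1 by 2.47 ± 0.26 (adjusted p = 0.00528) and TNNC1 by 2.57 ± 0.29 (adjusted p = 0.00608). TNNI2 fell by 3.28 ± 0.46 (adjusted p = 0.0134 in limma), TNNC2 by 3.39 ± 0.56 (adjusted p = 0.0204) and TNNT3 by 4.08 ± 0.70 (adjusted p = 0.0234). With the pig as a block and all 6 libraries, TNNT1 alone passed (adjusted p = 0.0403 in limma), at a background of 2.84% of genes called higher. The median change over all genes was 0.13 on the log2 scale, and the directions of the 6 genes held under each scaling tried.

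**Figure D2:**
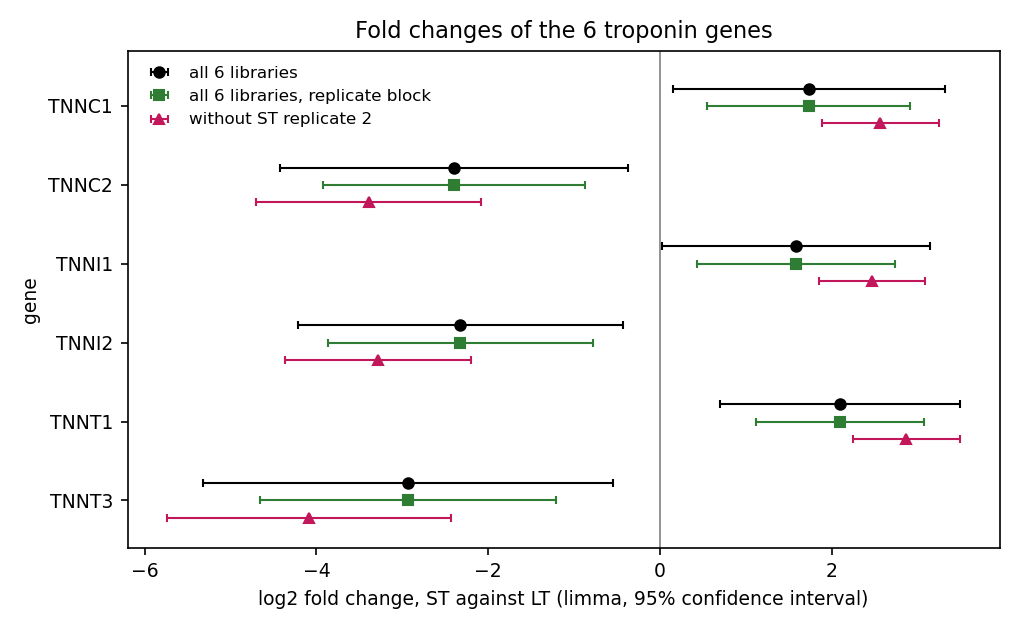
Log2 fold change of ST against LT for each gene, with 95% confidence intervals from limma. Circles use all 6 libraries, squares add the pig as a block, and triangles leave out ST replicate 2. The slow genes lie right of 0 and the fast genes left of it in all 3 fits, and the intervals are narrowest without ST replicate 2.

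The slow to fast ratio of a subunit compares 2 genes within a library, so it does not depend on how the library was scaled. For troponin C, TNNC1/TNNC2 was 0.330, 0.203 and 0.353 in LT against 9.41, 0.401 and 33.9 in ST. For troponin I, TNNI1/TNNI2 was 0.0732, 0.0437 and 0.0509 in LT against 1.59, 0.0642 and 5.45 in ST. For troponin T, TNNT1/TNNT3 was 0.0428, 0.0260 and 0.0474 in LT against 1.67, 0.0845 and 12.9 in ST. The fast gene was thus ahead for each subunit in all LT libraries and in ST replicate 2, and the slow gene was ahead for each subunit in ST replicates 1 and 3.

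All 3 ratios were higher in ST than in LT in each of the 3 pigs. The ST to LT difference on the log2 scale was 4.13 for troponin C, 3.91 for troponin I and 5.03 for troponin T, or 17.5-fold, 15.0-fold and 32.6-fold. The differences of single pigs ran from 0.98 to 6.58 for C, from 0.55 to 6.74 for I and from 1.70 to 8.09 for T. The 2-sided exact permutation p was 0.1 for C, 0.2 for I and 0.1 for T, or 0.15, 0.2 and 0.15 adjusted over the 3 subunits. With 3 libraries against 3, 0.1 is the smallest p possible. Troponin I overlapped because its ratio in ST replicate 2 was below that of LT replicate 1. Without ST replicate 2, whose ratios were the nearest to LT, the differences came to 62.2-fold, 53.8-fold and 124-fold.

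**Figure D3:**
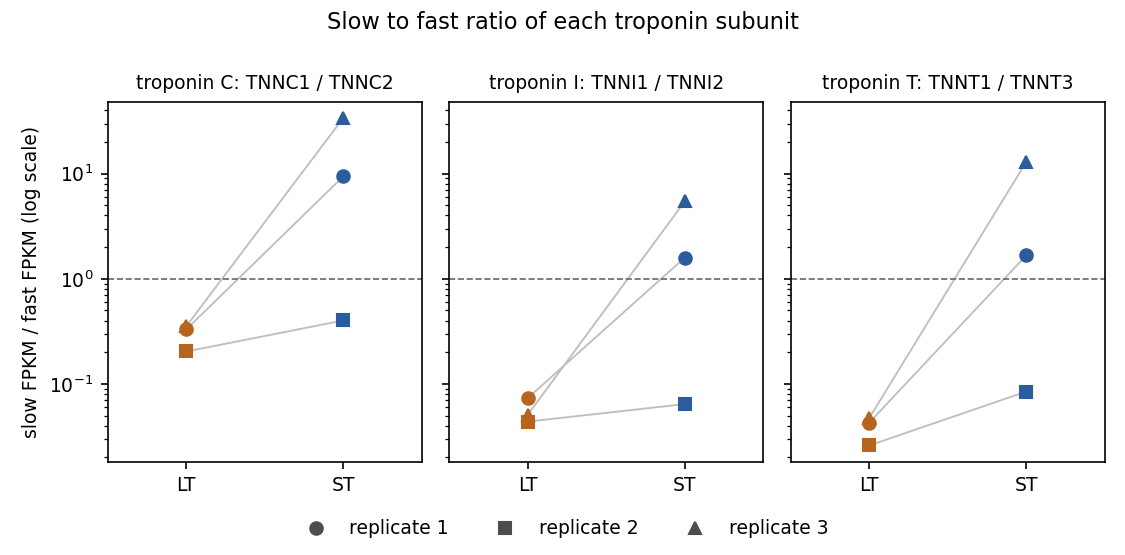
Slow to fast FPKM ratio of each subunit (log scale), by library, with the dashed line at equal slow and fast levels. Lines join the 2 muscles of a pig. Only ST replicates 1 and 3 (circle and triangle) lie above the line, and ST replicate 2 (square) stays at 0.401, 0.0642 and 0.0845.

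The slow share, slow over slow plus fast, was not the same for the 3 subunits of a library. Troponin C had the highest slow share in every library. In LT it was 22.6% ± 5.0 for C, 5.29% ± 1.37 for I and 3.72% ± 1.05 for T (SD, n = 3). In ST replicate 1 the shares were 90.4%, 61.4% and 62.5%, in ST replicate 2 they were 28.6%, 6.03% and 7.79%, and in ST replicate 3 they were 97.1%, 84.5% and 92.8%. The lowest share was that of T in all LT libraries and that of I in all ST libraries, ST replicate 2 included. The highest and lowest subunit ratios of a library stayed 7.46-fold to 7.83-fold apart in LT and 5.93-fold to 6.25-fold apart in ST.

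Within the slow set and within the fast set, the genes kept closer proportions than slow genes to fast genes did. TNNC1 was 5.08 to 6.42 times TNNI1 over the 6 libraries, a range of 1.26-fold, while TNNC1/TNNC2 ranged 167-fold and TNNI1/TNNI2 125-fold. TNNC2 was 0.835 to 1.13 times TNNI2. The slow set was therefore led by its C gene, and the fast set was near parity between C and I. Proportions that include a T gene were less steady. TNNI1/TNNT1 was 1.56 to 1.77 in LT and 1.01 to 1.33 in ST, without overlap. TNNC1/TNNT1 was 8.60 to 9.42 in LT and 6.23 to 8.55 in ST, also without overlap. TNNC2/TNNT3 was 1.12 to 1.26 in LT and 1.36 to 2.38 in ST, again without overlap. TNNI2/TNNT3 had the widest range of these proportions, 2.88-fold, and overlapped, at 0.987 to 1.45 in LT against 1.33 to 2.84 in ST.

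Summed over slow and fast, troponin I was lower in all ST libraries, at 8430 ± 458 FPKM in LT and 4384 ± 1805 FPKM in ST. Troponin T was likewise 7368 ± 1684 FPKM in LT and 3311 ± 1404 FPKM in ST, without overlap. Summed troponin C overlapped, at 10661 ± 1638 FPKM in LT and 12815 ± 3978 FPKM in ST. The ratio of summed C to summed T was 1.35 to 1.63 in LT, and 5.91, 1.76 and 5.95 in ST replicates 1, 2 and 3. The ratio of summed I to summed T stayed between 1.02 and 1.46 in all libraries. The 6 genes together held 5.87% to 7.21% of all FPKM in LT and 4.64% to 5.74% in ST, the latter from a library total with more mitochondrial RNA.

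**Figure D4:**
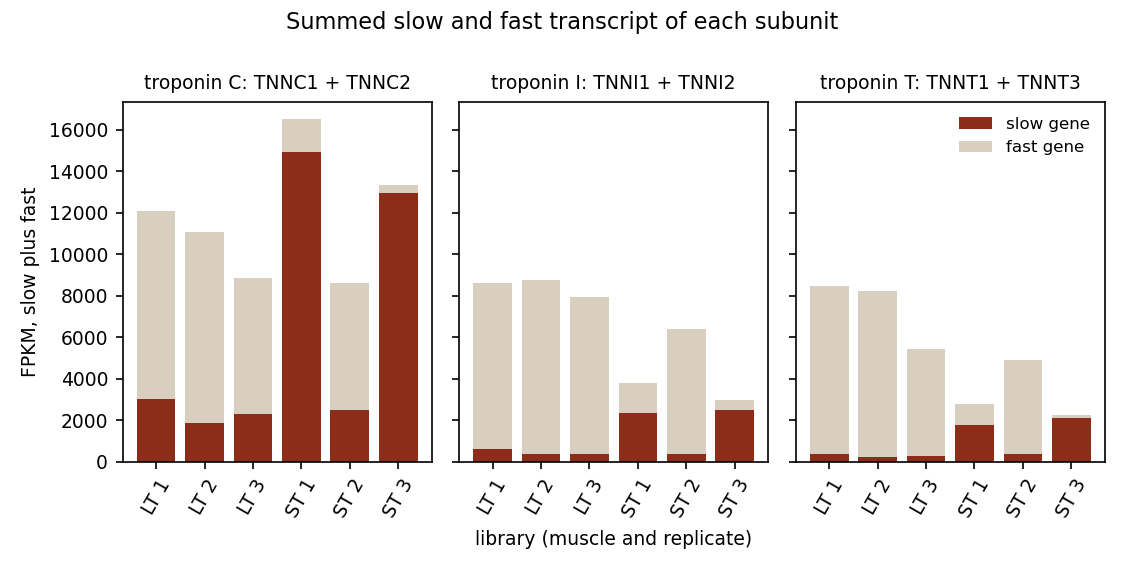
FPKM of the slow gene (dark) and the fast gene (light) of each subunit, stacked, by library. In ST replicates 1 and 3 the summed troponin C reached 16507 and 13336 FPKM, while summed troponin I and T were at 3788 FPKM or less.

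Of the 29 transcripts, 25 were above 0.1 FPKM in at least 1 library, and 4 were listed at 0 in all libraries. Of the 25, 7 were higher and 7 lower in all ST libraries than in all LT libraries, against 9.87% and 6.44% of all transcripts tested. No transcript passed in limma with all 6 libraries, where 0.146% of transcripts were called. Before adjustment, 19 of the 25 had a limma p below 0.05 in this fit, against 9.69% of all transcripts tested. Without ST replicate 2, 7 were called higher and 1 lower in ST, against 0.261% and 0.246% of transcripts. As with the genes, these calls are no separate support.

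The troponin C genes used the same transcripts in both muscles. ENSSSCT00000012521 (6 exons, 699 bases) made up more than 99.9% of TNNC1 in every library. TNNC2 was split between ENSSSCT00000043925 (4 exons), at 67.3% to 70.9%, and ENSSSCT00000055704 (6 exons), at 29.1% to 32.7%, although the gene itself ranged from 383 to 9187 FPKM.

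For TNNI1, ENSSSCT00000024604 (8 exons, 898 bases) led in all 6 libraries, at 71.7% to 79.9% in LT and at 78.4%, 48.7% and 67.8% in ST replicates 1, 2 and 3. A longer model with 10 exons, ENSSSCT00000056348, was at 26.0, 18.6 and 74.7 FPKM in LT and at 287, 122 and 644 FPKM in ST. Its level was higher in all ST libraries, ST replicate 2 included, but its share of TNNI1 overlapped, at 4.42% to 19.5% in LT and 12.3% to 31.4% in ST. ENSSSCT00000039228 held 6.41% to 19.9% of the gene. For TNNI2, 2 models of 7 exons shared nearly all of the gene. ENSSSCT00000061634 held 71.2%, 58.5% and 70.4% in LT and 45.2%, 73.4% and 35.8% in ST. ENSSSCT00000049867, which starts upstream of it, was the leading model in ST replicates 1 and 3 alone, at 52.6% and 62.6%. In ST replicate 2 it held 24.9%, the lowest share of the 6 libraries.

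TNNT1 was spread over 5 models with at least 5% of the gene in at least 1 library. ENSSSCT00000046915 (12 exons) led in LT at 32.7%, 40.8% and 40.1%, the largest share of a TNNT1 model within each LT library, and was lower in ST, at 27.9%, 30.2% and 25.3%, without overlap. In ST the leading model was ENSSSCT00000026662 (12 exons) in replicates 1 and 2, at 32.01% and 31.66%, and ENSSSCT00000070472 (14 exons) in replicate 3, at 35.2%. ENSSSCT00000085129 and ENSSSCT00000089184 held under 10% each. The levels of all 5 were lower in each LT library than in ST replicates 1 and 3.

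TNNT3 did not have the same leading transcript in the 2 muscles. ENSSSCT00000047807 (17 exons, 1257 bases, chromosome 2, 1299371 to 1316515) led in LT at 3903, 4957 and 4476 FPKM, and was at 85.1, 445 and 34.1 FPKM in ST. Its share of the gene was 48.0%, 62.0% and 86.3% in LT against 8.13%, 9.85% and 21.2% in ST. It fell in ST in the fit without ST replicate 2 (log2 fold change -6.36, adjusted p = 0.0136 in limma), and missed the threshold with all 6 libraries (-5.34 ± 0.86, adjusted p = 0.146 in limma).

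ENSSSCT00000062917 (19 exons, 1119 bases), a model over the same stretch of the gene, had the opposite pattern. It was at 3.92, 9.99 and 16.0 FPKM in LT and at 520.05, 792 and 57.5 FPKM in ST. All ST libraries were above all LT libraries although TNNT3 as a whole was lower in ST. Its share was 0.0482% to 0.309% in LT and 49.7%, 17.5% and 35.7% in ST. The log2 fold change was 5.05 ± 1.04 with all 6 libraries (adjusted p = 0.247 in limma). The ratio of this model to ENSSSCT00000047807, a pair chosen after their values were seen, was 0.0010, 0.0020 and 0.0036 in LT against 6.11, 1.78 and 1.69 in ST.

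ST replicate 2, which was close to LT in the slow to fast ratios, was therefore with the other ST libraries in its low share of the first model and its raised share of the second. Its leading model was a different one, ENSSSCT00000046676 (15 exons, starting at 1301085), at 2570.2 FPKM or 56.9% of the gene. That model was at 1263, 723 and 70.4 FPKM in LT, and at 82.7 FPKM in ST replicate 1 and listed at 0 in ST replicate 3. ENSSSCT00000046868 (16 exons) was at 2349, 1709.5 and 418 FPKM in LT and at 111, 10.5 and 0.0351 FPKM in ST. The 2 models with the longest exon sequence, ENSSSCT00000037050 (4926 bases) and ENSSSCT00000076350 (4434 bases), kept levels of 40.8 to 76.2 and 21.5 to 27.7 FPKM in LT and of 50.3 to 176 and 14.3 to 59.6 FPKM in ST. Their shares were thus higher in ST, at 2.77% to 31.3% and 1.32% to 8.86%. ENSSSCT00000038319 is 1 of 3 models that start at 989931 and run across TNNI2, and held 0% to 11.4% of the gene. StringTie splits reads between overlapping models, so the shares of near-identical models are uncertain.

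The smallest part of a gene's FPKM that would have to move between transcripts to make 2 libraries alike gives one measure of this. For TNNT3 it was 66.8% to 84.3% between an LT and an ST library, with a median of 76.6%, and 14.2% to 68.5% between libraries of the same muscle, with a median of 36.8%. Within the pigs it was 70.7%, 73.3% and 76.6%. For TNNI2 the medians were 22.8% between and 12.4% within muscles, for TNNI1 20.8% and 14.8%, and for TNNT1 12.3% and 10.5%. For TNNC2 they were 1.22% and 1.84%. TNNT3 was the gene with the largest gap, and the pairs share libraries, so these are descriptions without a test.

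**Figure D5:**
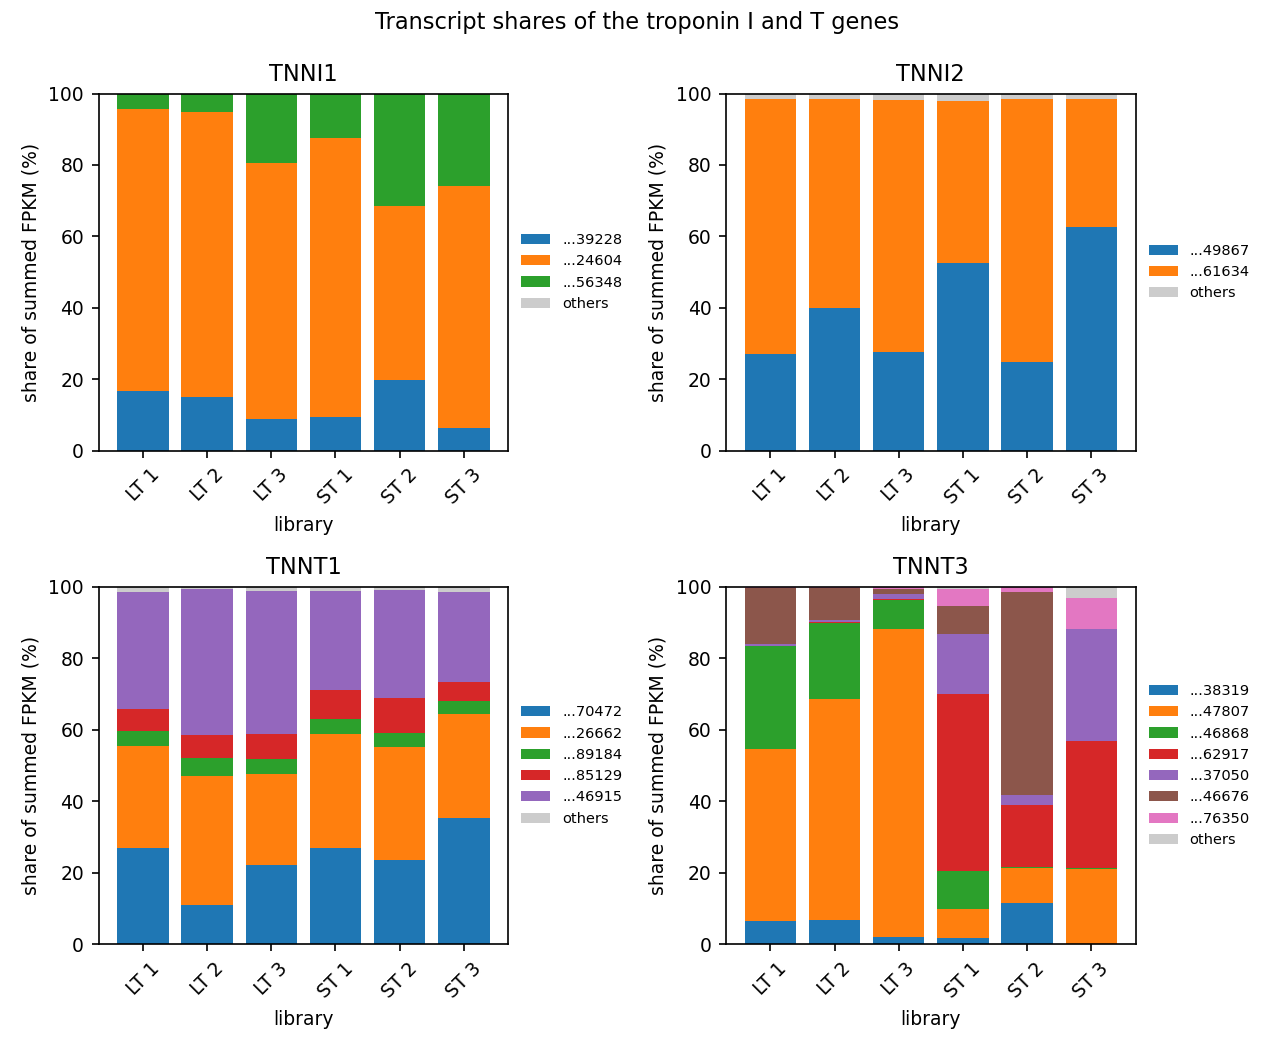
Share of each transcript in the summed FPKM of TNNI1, TNNI2, TNNT1 and TNNT3, by library, in percent. Colours are the transcripts with at least 5% of their gene in at least 1 library, named by the last 5 digits of their Ensembl IDs. In TNNT3, the model ending 47807 (orange) holds 48.0% to 86.3% in LT and at most 21.2% in ST, and the model ending 62917 (red) is visible in ST alone.

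Unannotated transcripts on the other strand overlapped 4 of the genes. They summed to 4.11% to 4.67% of the gene's own FPKM at TNNI2, to 15.7% to 20.6% at TNNT1, to 3.68% to 16.3% at TNNI1 and to 10.5% to 26.3% at TNNT3. At TNNI2 and TNNT1 the percentage was nearly the same in all libraries although the genes ranged widely. None was listed at TNNC1 or TNNC2. The libraries were made with a directional kit, but whether strand was used in the quantification is not given in the sources used here, so reads of the 2 strands may not have been told apart.

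Genes with profiles over the 6 libraries most like each troponin gene were looked for by the root mean square difference of centred log2 values. The search covered the 9063 protein-coding genes that had a symbol and a mean of at least 1 FPKM, so genes without a symbol could not appear. TNNC1 and TNNI1 were each other's nearest gene, at 0.149, and so were TNNC2 and TNNI2, at 0.168. The other genes of the same slow or fast set ranked between 1 and 24 of 9062 genes, and those of the opposite set between 9006 and 9052. TNNC1 was followed by TPM3, the slow tropomyosin, at 0.196 and the nuclear receptor ESRRG at 0.215, and TNNI1 by the homeobox factor PROX1 at 0.252 and the metalloproteinase MMP11 at 0.282. TNNT1 was nearest to MED12L at 0.143, then to the slow myosin light chain MYL3 at 0.208 and the calcium channel subunit CACNA2D3 at 0.229. ESRRG, PROX1, MED12L, CACNA2D3 and RIT1 had low levels, at 7.06 FPKM or less in all libraries. TNNC2 and TNNI2 were followed by SLN (sarcolipin), a regulator of the calcium pump, at 0.188 and 0.198, and then TNNC2 by MYBPC2 at 0.189 and TNNI2 by TPM1 at 0.249. TNNT3 was nearest to MYBPC2, the fast myosin-binding protein C, at 0.248, then to ACTN3, the fast actinin, at 0.316 and to the GTPase RIT1 at 0.321.

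The 2 cardiac troponin genes were at low levels. TNNI3, cardiac troponin I, whose gene lies 1238 bases from TNNT1, was at 0.278 to 0.673 FPKM in LT and at 3.18, 0.459 and 1.14 FPKM in ST. TNNT2, cardiac troponin T, was at 0.0953 to 0.502 FPKM in all libraries. Of 5 listed markers of cardiac muscle, 4 were found, TNNI3 and TNNT2 among them. The gene listed as MYH6 (chromosome 7, 75650445 to 75709232, 10 transcripts) was not low. It was at 530 to 696 FPKM in LT and 1014 to 4682 FPKM in ST, without overlap. MYH7 was not matched to a gene, and whether MYH6 as listed holds transcripts of MYH7 was not tested. RYR2 was at 0.115 to 0.236 FPKM in all libraries and overlapped. None of the 4 passed in limma with all 6 libraries.

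Other genes of the thin filament were less uniform. Of 13 listed, 10 were found, and 1 was called higher and none lower in ST in limma with all 6 libraries, against 0.412% of genes called higher. The tropomyosins, which carry troponin on actin, were divided. TPM1 was at 5087, 4801 and 4596 FPKM in LT and at 843, 2266 and 251 FPKM in ST, a pattern like that of the fast troponins. TPM3 was at 510.3, 301 and 531 FPKM in LT and at 2506, 518 and 2718 FPKM in ST, a pattern like that of the slow troponins. TPM2 was at 2631 to 4424 FPKM in LT and at 4862 to 6456 FPKM in ST, highest in ST replicate 2. LMOD2, a nucleator of actin filaments, was the gene that rose, at 1.96 ± 0.29 on the log2 scale (adjusted p = 0.0408 in limma), a call that 8 of its 14 alternatives lost, with adjusted p up to 0.172. NEB (nebulin), which spans the thin filament, was at 842 to 997 FPKM in all libraries.

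Genes that mark slow and fast fibres elsewhere in the sarcomere and in the sarcoplasmic reticulum had the same signs as the troponins. Of 8 slow fibre genes, 6 were found, all with a positive log2 fold change in ST and a median of 2.06, and MYBPC1, the slow myosin-binding protein C, was the 1 called higher, against 0.412% of all genes, a call that 7 of its 14 alternatives lost, with adjusted p up to 0.189. Of 11 fast fibre genes, 8 were found, all with a negative log2 fold change and a median of -2.19, and none was called. Without overlap, 5 of the 6 slow genes were higher in ST and 3 of the 8 fast genes lower, against 16.6% and 8.08% of all genes. ATP2A1 and PVALB went the other way in the pig of replicate 2, with ST at 1.04 and 1.28 times LT. The medians of the 3 slow and the 3 fast troponins were 1.73 and -2.40. Without ST replicate 2, all 6 slow genes were called higher and 6 of the 8 fast genes lower, against 3.31% and 1.77% of all genes. ST replicate 2 was the ST library nearest to LT for all of these genes but MYOZ1, so these calls are no separate support either.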

How the data were processed

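RNA of LT and ST from 3 Min pigs was sequenced in 6 directional, rRNA-depleted libraries. The deposited values were FPKM of each transcript, which the authors obtained with StringTie after read filtering in SOAPnuke and HISAT2 alignment against Sus scrofa 11.1. All transcripts of a protein-coding gene were added up. Genes or transcripts above 0.1 FPKM in at least 1 library were compared on log2(FPKM + 0.1) with limma 3.58.1 (variance trend, R 4.3.3), with Benjamini-Hochberg adjustment over 19672 genes or 52102 transcripts. They were called at an adjusted p below 0.05 where the log2 fold change was also over 1 in size. The fit was also run on simulated data with independent noise, no outlying library and no pig effect. That run therefore cannot speak to calls that turn on ST replicate 2. Ratios were compared with 2-sided exact permutation tests (SciPy 1.17.1).

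Groups came from the labels. The methods state that both muscles came from the same pigs, the labels do not tie the numbers to them, and same-numbered libraries deviated together (r = 0.290, 0.261 and 0.292, against -0.109 to -0.185 otherwise), so a fit with the pig as a block was run too. The genes named were the troponins, lists of 71 genes, of which 59 were matched, and the 3 genes nearest in profile to each troponin. Transcripts were named at 5% or more of the gene in at least 1 library. MYH1, MYH2, MYH4 and MYH7 were among the genes not matched by symbol or position, and were not analysed here. The genes and lists were chosen with earlier results of these data known. Alternatives were other pseudocounts, filters, scalings and variance settings, and leaving out each library.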

Additional observations from a re-analysis of the deposited data

How the results depend on the processing

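The 6 troponin genes kept their direction under all 14 alternatives each, with adjusted p in limma from 0.00357 to 0.662. TNNT1 was the 1 gene called with the replicate block. With 1 library left out, 0 to 6 of them were called, the 6 without ST replicate 2. The slow to fast ratios stayed higher in ST under all alternatives, from 2.55 to 7.49 on the log2 scale. The highest value came from the leading transcripts of TNNT1 and TNNT3 alone. With sign flips within pigs as the replicate block, the exact permutation p was 0.25, the smallest that 3 pairs allow. Over all genes, 113 were called (81 higher, 32 lower), 799 with the replicate block, 315 with FPKM rescaled to nuclear transcripts (266 higher, 49 lower), 61 with quantile normalization (32 higher, 29 lower), 29 without the variance trend and 6 without a filter on FPKM. Leaving out 1 library gave 12 (LT replicate 3) to 991 (ST replicate 2). The median change of all genes was 0.23 when rescaled and -0.0056 with quantile normalization. Over all transcripts, 76 were called, 2 with the replicate block, 37 with a pseudocount of 1, 26 without a filter and 40 above 1 FPKM. Leaving out 1 library gave 46 (ST replicate 1) to 256 (ST replicate 2). Some values switched sign. ACTA1, with all libraries -0.039, was at 0.073 when rescaled and at 0.062 with quantile normalization, and between -0.24 and 0.15 with 1 library left out. NEB, with all libraries 0.0051, was at -0.045 with quantile normalization and between -0.044 and 0.077 with 1 library left out. With 1 library left out, KLHL40 was between -0.15 and 0.64, TNNT2 between -0.016 and 0.73 and the TNNT3 model ENSSSCT00000046676, with all libraries at -3.85, between -7.12 and 0.20. The cause was not tested. FPKM gives no counting error for a transcript, and with 3 libraries a muscle no 2-sided exact permutation test can reach a p of 0.05.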
